A study of Mus musculus with 14 samples.

Results

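The data described here compare mouse fibroblasts treated with autologous micrograft (AMG) for 5 h with untreated fibroblasts of the same time point, in the replicates numbered 2, 3 and 4. Fibroblasts are the connective tissue cells that make and remodel the matrix of the skin. The cells came from tail tips of C57BL/6 mice, were grown as a monolayer in medium with fetal bovine serum and were scratched with a pipette tip. AMG is the soluble fraction of minced mouse skin, spun to remove cells and debris and diluted in growth medium, and the untreated cells were scratched but received no AMG. The 3 AMG-treated and 3 untreated libraries are 6 of the 14 libraries of the series, and each treated library was paired with the untreated library of the same replicate number. The labels call the replicates biological but do not say what libraries of one number share, and p-values here measure the spread between these 3 pairs. Neither age nor sex of the mice is given in the sources used here. Of 43472 genes listed, 13096 had a mean normalised count of at least 10 over the 6 libraries and were tested.

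Wounded skin fibroblasts are known to answer plasma and tissue factors with a fast inflammatory and growth factor programme, in which NF-kB, ERK and stress sensors such as NRF2 switch on secreted signals. Quiescent and developmental pathways in the same cells, among them BMP, Wnt and Hedgehog signalling, keep positional identity and differentiation. The comparison asked which of these processes differed between treated and untreated cells at one early time, beyond AP-1, metalloproteinase and chemokine genes. The paper itself also listed rises of angiogenesis, cell cycle and epithelialization genes. It named Ets1, Vegfa, Flt1, Nos2, Ptgs2, Lif, Dusp10 and Hmox1 among them. Because RNA came from whole cultures, fewer cells of a type and less RNA per cell cannot be told apart.

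Between 12545537 and 34696529 reads per library were assigned to genes. Both libraries of a number stood apart from the others for some genes, whatever the treatment. The replicate number accounted for a median of 48.4% of a gene's sum of squares and the treatment for 32.2%. Replicate 3 differed from the mean of replicates 2 and 4 by more than 3 on the log2 scale in 164 genes, and replicate 4 from replicate 2 in 38 genes. Thy1, a surface protein of many fibroblasts, was at 14712 and 14412 normalised counts in the untreated and treated libraries of replicate 3, against 1068 to 1723 in the other 4. Lum, a proteoglycan of collagen fibrils, was lowest in replicate 3, at 333 and 219. The macrophage genes Lyz2 (978 and 916) and Emr1 (77.4 and 45.2) were high in both libraries of replicate 4, whereas the other 4 libraries held 76.6 to 158 and 1.39 to 2.54. Of 12 fibroblast markers, Col1a1, Col1a2 and Vim were abundant in all 6 libraries, whereas Fap held 8.8 to 37.6 normalised counts. Of 16 keratinocyte markers, 6, among them Krt5 and Krt14, were at 0 in all 6 libraries, the list summed to 94.7 to 291 normalised counts in untreated and 197 to 821 in treated libraries, and Sfn and Krt17 were called higher and Trp63 lower. Red blood cell markers summed to at most 2.46. Of 11 skeletal muscle and 7 adipocyte markers, 2 and 4 were at 0 in all 6 libraries. The muscle gene Acta1 held 1735 to 7289 normalised counts and the adipocyte gene Fabp4 259 to 2067. The part of such cells in the results was not tested.

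**Figure D1:**
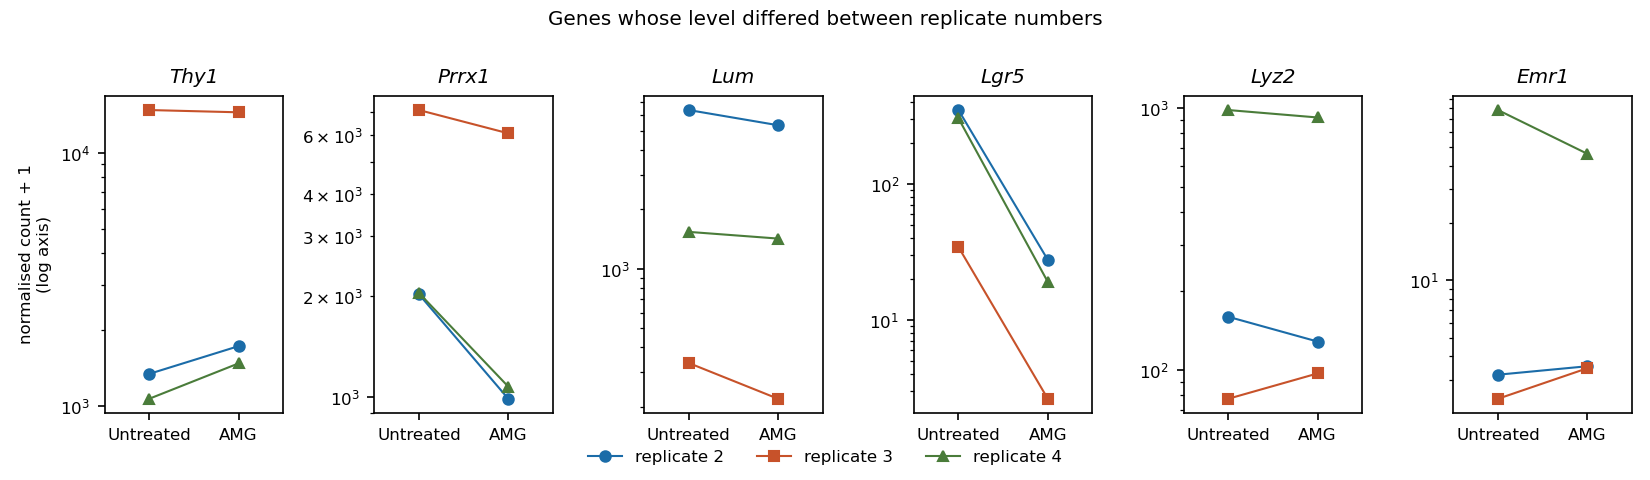
Normalised counts (plus 1, log axis) of 6 genes in each of the 6 libraries; each line joins the untreated and the AMG-treated library of one replicate number. Thy1 and Prrx1 were highest and Lum and Lgr5 lowest in replicate 3, and Lyz2 and Emr1 were highest in replicate 4, in both treatments.

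AMG changed transcripts in both directions. At an adjusted p under 0.05 (limma, Benjamini-Hochberg, replicate number as a block), 4872 genes differed, of which 2345 (17.9% of the genes tested) were higher and 2527 (19.3%) lower with AMG. A gene was called when its fold change was also above 1 or below -1 on the log2(normalised count + 1) scale, which left 530 genes called higher (4.05%) and 560 called lower (4.28%). Called genes had a median of 1.63 where they were higher and -1.32 where they were lower. Rises reached further than falls, since 187 called genes rose and 72 fell by more than 2 on the log2 scale. The treated and untreated values did not overlap in 28.7% of all tested genes, and likewise in 400 of the 530 higher and 336 of the 560 lower genes. Replicate 3 had the smallest change of the 3 pairs in 358 of the higher and 430 of the lower genes. Its median log2 ratio was 1.30 for the higher genes, against 1.80 and 1.81 in replicates 2 and 4, and -0.91 for the lower genes, against -1.58 and -1.61. Without the replicate block, 112 genes were called higher and 32 lower. Where the adjusted p of a gene named by rule stayed under 0.05 without the block, this is said beside it.

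To describe what moved, 39 lists of genes of known function were counted, with 1134 different tested genes in all, of which 130 were called higher and 72 lower. The number of list genes at an adjusted p under 0.05 depended on which pairs entered the fit. It was under 2/3 of its value in 31 of the 39 lists without replicate 2, in 18 without replicate 4, in 0 without replicate 3 and in all 39 with the replicate 1 pair added (4 pairs; that pair comes from a table normalised separately). Such counts are given beside the lists below. The plot of the lists shows the share of each list at an adjusted p under 0.05 in each direction beside the share over all tested genes. NF-kB, NRF2 and ribosomal protein genes had the largest shares of higher members, at 80.8%, 80% and 86.1%. Mitosis, guidance and collagen genes had the largest shares of lower members, at 70.3%, 62.2% and 59.1%.

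**Figure D2:**
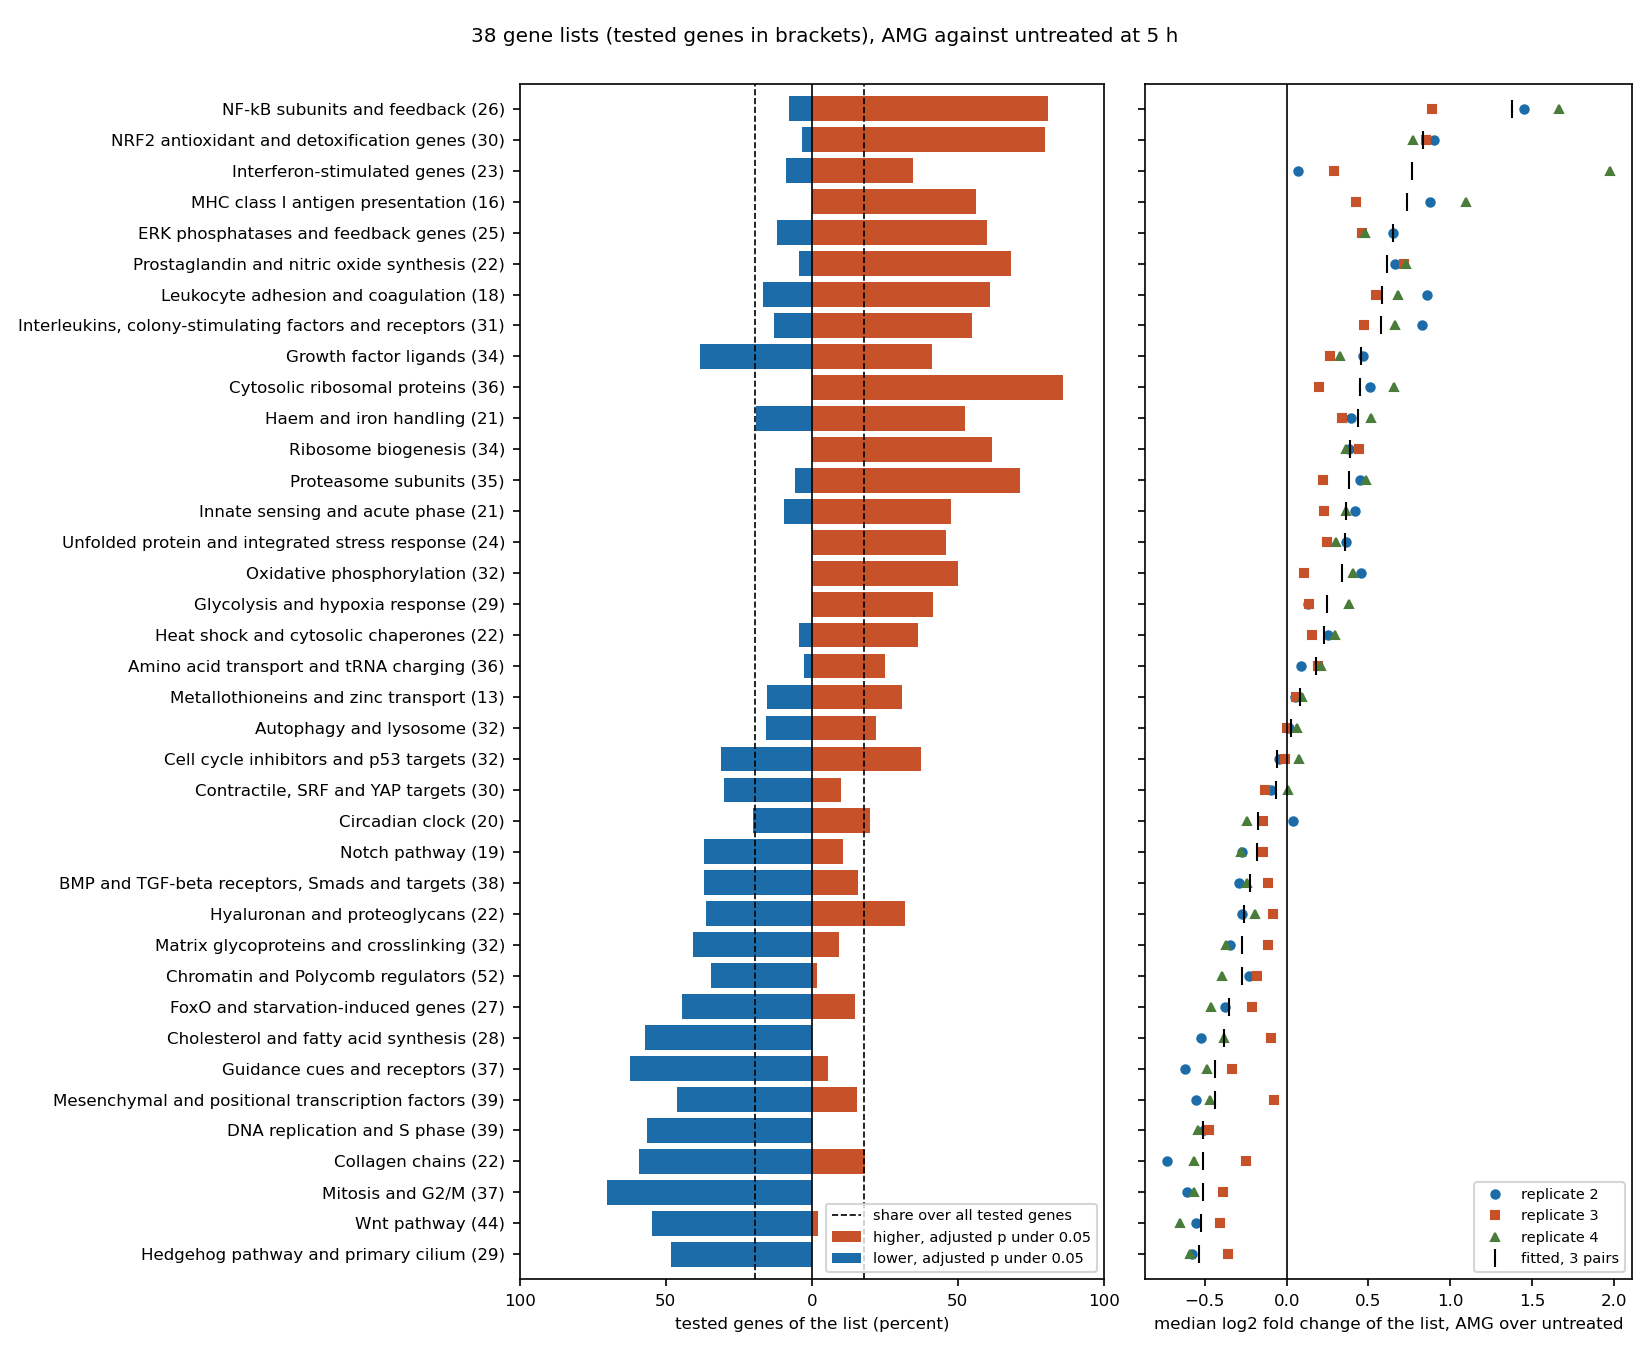
Left, percent of the tested genes of each of 38 of the 39 lists that were higher (right of 0) or lower (left of 0) with AMG at a limma adjusted p under 0.05; dashed lines mark the shares over all 13096 tested genes (17.9% higher, 19.3% lower). Right, median log2 fold change of each list in each replicate pair and in the fit; replicate 3 lies closest to 0 of the 3 pairs in 29 of these 38.

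The genes that fell began with regulators of growth factor signalling. Lgr5, a receptor for R-spondins that strengthens Wnt signalling and marks stem cells of several epithelia, showed the largest fall among the genes named by rule. Untreated replicates 2, 3 and 4 held 349, 33.4 and 303 normalised counts of Lgr5, and the treated libraries 26.7, 1.64 and 18.1. Replicate 3 was low in both treatments. Every treated library lay below every untreated one, which the rule that named the gene required. The change of -3.79 ± 0.27 (SE) on the log2 scale had an adjusted p of 3.09e-05 with limma, and 0.137 without the block. On the genome build GRCm38, Lgr5 lies at chr10:115450311-115587780 (minus strand), Smad9 at chr3:54755582-54801257 (plus strand) and Id2 at chr12:25093799-25097140 (minus strand).

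BMP signalling genes were also among the falls. BMP ligands act through receptor kinases on Smad1, Smad5 and Smad9, which switch on Id genes and the inhibitors Smad6 and Bambi. Among 38 tested genes of BMP and TGF-beta signalling, 5 were called lower and 2 higher, with a list median of -0.23. At an adjusted p under 0.05, 14 fell (36.8%) and 6 rose (15.8%), against 19.3% and 17.9% of all tested genes. Without replicate 2 or without replicate 4 the list held 9 falls and 2 rises, and with 4 pairs 5 and 2. Smad9 went from 352, 189 and 229 normalised counts in untreated replicates 2, 3 and 4 to 40.7, 24.6 and 19.2 in the treated ones. Id2, an inhibitor of differentiation factors, went from 259.6, 260.4 and 217 to 63.6, 67.2 and 40.7. Smad6, which blocks BMP receptors, went from 660.0, 405 and 424 to 137, 138 and 92.6. In all 3 genes the treated libraries lay below the untreated libraries without overlap, which the rule for the largest falls required of Smad9. Fold changes were -3.16 ± 0.22, -2.11 ± 0.19 and -2.00 ± 0.17 (SE), with adjusted p of 2.46e-05, 1.01e-04 and 8.07e-05 (limma), and all 3 stayed under 0.05 without the block. The ligand Bmp4 (-1.84 ± 0.15, adjusted p = 4.61e-05, limma), the pseudoreceptor Bambi (-1.31 ± 0.21), Id3 (-0.90 ± 0.13) and Id1 (-0.57 ± 0.11) also fell. The inhibitory Smad7 did not pass (0.22 ± 0.10, adjusted p = 0.0925, limma), nor did the receptor-regulated Smad1 (0.07 ± 0.14) and Smad5 (0.07 ± 0.10). The ligands Bmp2 (1.40 ± 0.23) and Bmp6 (1.54 ± 0.40) were called higher. Atoh8, a basic helix-loop-helix factor, fell from 1693, 1171 and 1042 to 136, 331 and 66.6 normalised counts (-3.13 ± 0.33, adjusted p = 2.23e-04, limma).

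Wnt pathway genes were mostly lower. Of 44 tested pathway genes, 13 were called lower and 1 higher, and 24 fell and 1 rose at an adjusted p under 0.05 (54.5% against 19.3% of all genes). The falls numbered 12 without replicate 2, 17 without replicate 4 and 8 with 4 pairs. Wnt ligands bind Frizzled receptors with the coreceptors Lrp5 and Lrp6, and 8 of the 13 genes called lower encode receptors or coreceptors. The Frizzled genes Fzd4 (-1.72 ± 0.39), Fzd7 (-1.54 ± 0.17), Fzd2 (-1.22 ± 0.17), Fzd6 (-1.18 ± 0.34) and Fzd8 (-1.11 ± 0.16) and the coreceptor Lrp6 (-1.16 ± 0.17) were called lower, whereas Fzd1 was at 0.01 ± 0.12 (SE). Fzd7, the most abundant of the called Frizzled genes, held 2404, 2711 and 2339.9 normalised counts in untreated replicates 2, 3 and 4 and 763, 1397 and 576 with AMG. The noncanonical receptor Ror1 (-1.92 ± 0.35) and the R-spondin receptor Lgr4 (-1.21 ± 0.17) fell. Rnf43, which removes Frizzled receptors from the surface, went from 17.6, 15.3 and 37.9 to 0, 9.84 and 5.65, near the floor of 3 reads in the treated libraries, and Wnt4 went from 128, 143 and 65.4 to 22.9, 42.6 and 5.65. The ligand Wnt11 was the called gene in the other direction, from 234, 136 and 81.1 to 588, 254 and 456 (1.56 ± 0.26, adjusted p = 0.0023, limma). The signal transducer Ctnnb1 (-0.15 ± 0.09, adjusted p = 0.224, limma), Gsk3b (-0.19 ± 0.10) and the target Axin2 (-0.73 ± 0.42) did not pass. None of the Wnt genes named by rule, Wnt4, Rnf43, Ror1 and Wnt11, had an adjusted p under 0.05 without the block.

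Hedgehog and guidance genes moved the same way, and Notch genes less clearly. Among 29 Hedgehog and primary cilium genes, 14 fell and 0 rose at an adjusted p under 0.05. That count was 2 without replicate 2, 7 without replicate 4, 0 with 4 pairs and 9 with a correction for exon length, described below. The Hedgehog coreceptor Cdon fell from 957, 498 and 645 to 419.9, 266 and 263 normalised counts (-1.13 ± 0.13, adjusted p = 3.43e-04, limma). The transcription factor Gli3 (-0.90 ± 0.16) and the cilium gene Kif7 (-0.85 ± 0.18) fell by less than the size called. Gli2 was called lower from low counts, 8.8, 27.8 and 14.1 in untreated and 0, 11.5 and 1.13 in treated libraries, which overlapped. Of 19 Notch pathway genes, 7 fell and 2 rose (4 and 1 without replicate 2, 1 and 1 with 4 pairs). The Notch list median was -0.18 in the main fit and 0.003 with 4 pairs. Notch3 was called lower (-1.51 ± 0.31), with the highest counts in replicate 3 (489 untreated and 247 treated) and overlapping groups. Rbpj, the DNA-binding partner of Notch, rose from 2352, 2891 and 2966 to 5608, 5362 and 6673 (1.10 ± 0.10, adjusted p = 8.78e-05, limma), also without the block. Among 37 guidance cues and receptors, which steer axons and migrating cells by attraction and repulsion, 23 fell (62.2%) and 2 rose. Without replicate 2 there were 13 falls, and with 4 pairs 4. The called falls were Robo2 (-1.55 ± 0.34), Ephb3 (-1.51 ± 0.18), Sema3d (-1.35 ± 0.18), Plxna2 (-1.35 ± 0.21), Epha3 (-1.31 ± 0.22), Sema6a (-1.30 ± 0.24), Unc5c (-1.26 ± 0.18), Epha4 (-1.11 ± 0.17) and Efna5 (-1.07 ± 0.15). Sema7a, a membrane-bound semaphorin that signals through integrins, was the called rise, from 1320.0, 1281 and 2485 to 8407, 6357 and 10434 normalised counts (2.35 ± 0.12, adjusted p = 2.40e-06, limma). The treated values of Sema7a all lay above the untreated ones, and its call held without the block.

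Transcription factors of mesenchymal identity fell in part. Of 39 tested, 18 fell (46.2%) and 6 rose (15.4%) at an adjusted p under 0.05, against 19.3% and 17.9% of all tested genes. In the list, 4 were called lower and 3 higher. The falls were 9 and the rises 2 without replicate 2, and 4 and 1 with 4 pairs. Snai2, which drives mesenchymal state, went from 984, 769 and 743 to 294, 361 and 293 normalised counts with no overlap between the groups, and its change of -1.39 ± 0.14 (SE; adjusted p = 1.97e-04, limma) held without the block. Osr1, a factor of connective tissue progenitors, went from 418, 952 and 408 to 144, 364 and 96, with both replicate 3 libraries the highest of their group. The posterior Hox genes of the tail region were expressed, and Hoxa13 (-1.39 ± 0.32) and Hoxa10 (-1.16 ± 0.21) were called lower, while Hoxc13 (-0.95 ± 0.14), Hoxc10 (-0.87 ± 0.13) and Hoxb13 (-0.73 ± 0.12) fell by less than 1. Prrx1 (-0.73 ± 0.14) and Twist1 (-0.62 ± 0.13) fell as well. Tbx3 rose from 199, 352 and 129 to 662, 1291 and 694 (2.00 ± 0.15, adjusted p = 3.76e-05, limma), and Twist2 and Sox11 were called higher at 1.14 ± 0.20 and 1.05 ± 0.20.

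FoxO factors are known to induce growth arrest and nutrient genes when insulin-like signalling is low. Of 27 such genes tested, 12 fell (44.4%) and 4 rose (14.8%), against 19.3% and 17.9% of all tested genes. The falls and rises were 7 and 1 without replicate 2, 8 and 1 without replicate 4, and 3 and 0 with 4 pairs. Klhl24 went from 508, 464 and 441 to 153, 182 and 119 normalised counts, the largest called fall of the list (-1.65 ± 0.15, adjusted p = 1.19e-04, limma), and its call held without the block. Pik3r3 (-1.45 ± 0.22), a regulatory subunit of PI3-kinase, Pik3ip1 (-1.16 ± 0.15), which restrains that kinase, and the receptor adaptor Irs2 (-1.15 ± 0.31) were called lower. Klf15 was called lower at -1.62 ± 0.42 from low counts, 39.6, 19.5 and 18.9 in untreated and 11.5, 4.92 and 6.78 in treated libraries, and the often used FoxO genes Txnip (0.04 ± 0.10) and Fbxo32 (-0.01 ± 0.25) did not pass. Cell cycle inhibitors split. Cdkn1b (-0.90 ± 0.16) and the retinoblastoma genes Rb1 (-0.83 ± 0.16) and Rbl2 (-0.82 ± 0.12) fell, whereas Cdkn1a rose by 0.88 ± 0.12 and Gadd45a, a stress gene, from 107, 59.9 and 101 to 823, 183 and 681 (2.43 ± 0.24, adjusted p = 1.86e-04, limma). In that list of 32, 12 rose and 10 fell, against 7 and 5 without replicate 2 and 3 and 3 with 4 pairs. Gadd45g, of the same family as Gadd45a, was called lower (-1.15 ± 0.10), with overlapping groups because the untreated libraries ranged from 1462 to 3936.

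Proliferation genes were lower. Of 39 DNA replication genes, 22 fell and 0 rose at an adjusted p under 0.05, with 5 called lower and a median of -0.51. There were 11 falls without replicate 2, 14 without replicate 4 and 3 with 4 pairs, where the median was -0.37. Dtl, which marks the licensing factor Cdt1 for destruction, went from 161, 198 and 157 to 38.2, 83.6 and 35 normalised counts (-1.80 ± 0.24, adjusted p = 8.16e-04, limma). The polymerase subunit Pole (-1.44 ± 0.19), the checkpoint adaptor Clspn (-1.38 ± 0.20) and the cyclin Ccne2 (-1.21 ± 0.25) were called lower. The helicase subunits Mcm2 to Mcm7 ranged from -0.69 ± 0.11 for Mcm5 to -0.32 ± 0.10 for Mcm7, and Pcna was at -0.17 ± 0.11 and did not pass. Of 37 mitosis genes, 26 fell (70.3%) and 0 rose, with a median of -0.51. The falls dropped to 7 without replicate 2, 17 without replicate 4 and 0 with 4 pairs, with medians of -0.50, -0.48 and -0.38. Anln, a scaffold of the cleavage furrow, went from 1617, 2549.5 and 1563 to 709, 1589 and 569, Ect2, which acts at the same furrow, from 478, 421 and 326 to 154, 298 and 155, and Hmmr from 566, 803 and 363 to 240.5, 614 and 137. Those 3 were the called mitosis genes. The groups of Anln and Hmmr overlapped because replicate 3 was highest in both treatments. Mki67 (-0.36 ± 0.10) and Top2a (-0.47 ± 0.09) fell, while Cdk1 (0.10 ± 0.10), Birc5 (0.17 ± 0.13) and Plk1 (-0.25 ± 0.12) did not pass. With the correction for exon length, 0 mitosis genes were called, and without the block none of the named replication and mitosis genes had an adjusted p under 0.05.

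Many promoters of mitosis genes carry the cell cycle homology region, TTTGAA, which the DREAM repressor complex is known to bind in resting cells. It was found on either strand in the 300 bases around the start (250 before, 50 after) of 21 of 28 mitosis genes with a single promoter in the RefSeq table (75%), against 11.5% of 7642 tested genes with such a promoter. In DNA replication genes it was found in 3 of 30 (10%). Among called genes with such a promoter it was found in 11.8% of the lower and 12.9% of the higher ones, near the share of all. The following stretches lie before the start of mitosis genes that fell, on GRCm38.p6, shown 5′ to 3′ on the gene's strand with the element in capitals (TTCAAA is the same element on the other strand), to show where it sits.
Top2a, chr11:99024190-99024242 (minus strand): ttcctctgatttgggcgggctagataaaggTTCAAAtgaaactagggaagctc
Kif11, chr19:37376333-37376381 (plus strand): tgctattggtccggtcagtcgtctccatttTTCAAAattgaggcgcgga
Ncapg, chr5:45669865-45669924 (plus strand): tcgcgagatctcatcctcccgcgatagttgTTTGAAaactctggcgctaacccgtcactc
The element began 23, 19 and 30 bases before the start, and Top2a held another match 179 bases before it. The fold changes of these genes were -0.47 ± 0.09 for Top2a, -0.85 ± 0.15 for Kif11 and -0.88 ± 0.16 for Ncapg (SE). Mitosis genes that did not pass also held the element, among them Cdk1 (71 and 15 bases before the start, change of 0.10) and Ube2c (29 bases, 0.12). Whether the element had a part in the falls was not tested.

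Sterol and fatty acid synthesis genes were lower by small amounts. Of 28 tested, 16 fell (57.1%) and 0 rose, with a median of -0.38. The count of falls was 4 without replicate 2, 9 without replicate 4 and 0 with 4 pairs, where the median was -0.16. In replicates 2, 3 and 4 the median was -0.53, -0.09 and -0.38. Scd2, a fatty acid desaturase, was the called gene, from 8854, 13557 and 8911 to 3049.7, 10653 and 3382 normalised counts, and replicate 3 changed least. Fads2 (-0.88 ± 0.15), Hmgcs1 (-0.56 ± 0.09), an early enzyme of cholesterol synthesis, and Fasn (-0.46 ± 0.14), the fatty acid synthase, fell by less than 1.

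Matrix genes fell more often than they rose in the fit of 3 pairs. Among 22 collagen chain genes, 13 fell (59.1%) and 4 rose (18.2%) at an adjusted p under 0.05, against 19.3% and 17.9% of all tested genes. Without replicate 2 these were 3 and 2, without replicate 4 8 and 4, and with 4 pairs 0 and 2. Col1a1, the main chain of type I collagen, went from 265490.0, 171810.0 and 278570.0 to 139520.0, 130390.0 and 186580.0 normalised counts (-0.63 ± 0.15, adjusted p = 0.0109, limma), and Col1a2 and Col3a1 changed by -0.57 ± 0.13 and -0.54 ± 0.13. The treated and untreated values of Col1a1 overlapped, since untreated replicate 3 was below treated replicate 4. Col5a3, a minor fibrillar chain, rose in every pair, from 4839, 7257 and 4837 to 20901, 19914 and 24095 (1.96 ± 0.15, adjusted p = 3.72e-05, limma), also without the block. Col27a1 rose by 1.44 ± 0.31 and Col18a1 by 0.92 ± 0.11. Of 32 matrix glycoprotein and crosslinking genes, 13 fell and 3 rose (2 and 1 without replicate 2, 8 and 0 without replicate 4, 0 and 0 with 4 pairs), with Fn1 (fibronectin) at -0.51 ± 0.14, Fbn1 (fibrillin) at -0.47 ± 0.11 and Tnc (tenascin C) at 0.50 ± 0.12. Thbs1, an abundant matricellular protein that also activates latent TGF-beta, fell from 311400.0, 267600.0 and 411450.0 to 104110.0, 171480.0 and 137910.0 (-1.27 ± 0.20, adjusted p = 0.0018, limma). Among 22 hyaluronan and proteoglycan genes, 8 fell and 7 rose, 3 and 6 without replicate 2, 4 and 5 without replicate 4, and 1 and 2 with 4 pairs. Ogn was called lower (-1.16 ± 0.10), and Has1, a hyaluronan synthase, was called higher from 3.3, 12.5 and 4.33 to 45.8, 58.2 and 73.4 (3.13 ± 0.43). The main fibroblast synthase Has2 did not pass (-0.38 ± 0.17, adjusted p = 0.111, limma).

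Chromatin regulators were lower in 18 of 52 genes and higher in 1. The lower genes numbered 9 without replicate 2, 10 without replicate 4 and 1 with 4 pairs. Arid5b went from 950.4, 1657 and 1081 to 189.6, 726 and 230.4 normalised counts (-1.91 ± 0.20, adjusted p = 2.16e-04, limma), the Polycomb corepressor Bcor from 624, 692 and 709 to 144, 381 and 223, and Gatad2b of the NuRD complex from 219, 311 and 287 to 78.9, 157 and 73.4. The treated values of all 3 lay below the untreated values, and replicate 3 changed least. The list median of -0.27 was -0.11 with the length correction, with 7 genes higher and 11 lower.

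Several genes with the largest falls belong to none of these pathways. Dhrs3, an enzyme that reduces retinaldehyde and so limits retinoic acid, went from 1789.7, 984 and 1873 to 300.3, 168 and 268 normalised counts, a change of -2.64 ± 0.11 (SE; adjusted p = 1.09e-06, limma). Dio3os, a noncoding RNA of the imprinted Dlk1-Dio3 region that overlaps Mir1247, went from 515, 769 and 820.0 to 54.7, 165 and 63.3. Tppp, a protein that bundles microtubules, went from 306, 129 and 272 to 44.5, 21.3 and 27.1. These 3 genes had no overlap between the groups, which the rule that named them required. All 3 kept an adjusted p under 0.05 without the block. Adra1d, an alpha-1 adrenergic receptor, went from 979, 749 and 431 to 86.5, 197 and 74.5 (-2.64 ± 0.25), also without the block, and the orphan receptor Mrgprf from 860.2, 941 and 872 to 86.5, 464 and 101 (-2.47 ± 0.36). Eya4 (-2.62 ± 0.38), a transcriptional coactivator and phosphatase, the ubiquitin ligase Peli2 (-2.45 ± 0.21), Setbp1 (-2.37 ± 0.23) and Mum1l1 (-2.37 ± 0.25) were called lower. For Mrgprf, Atoh8 and Eya4 the fall in replicate 3 was the smallest of the 3 pairs.

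**Figure D3:**
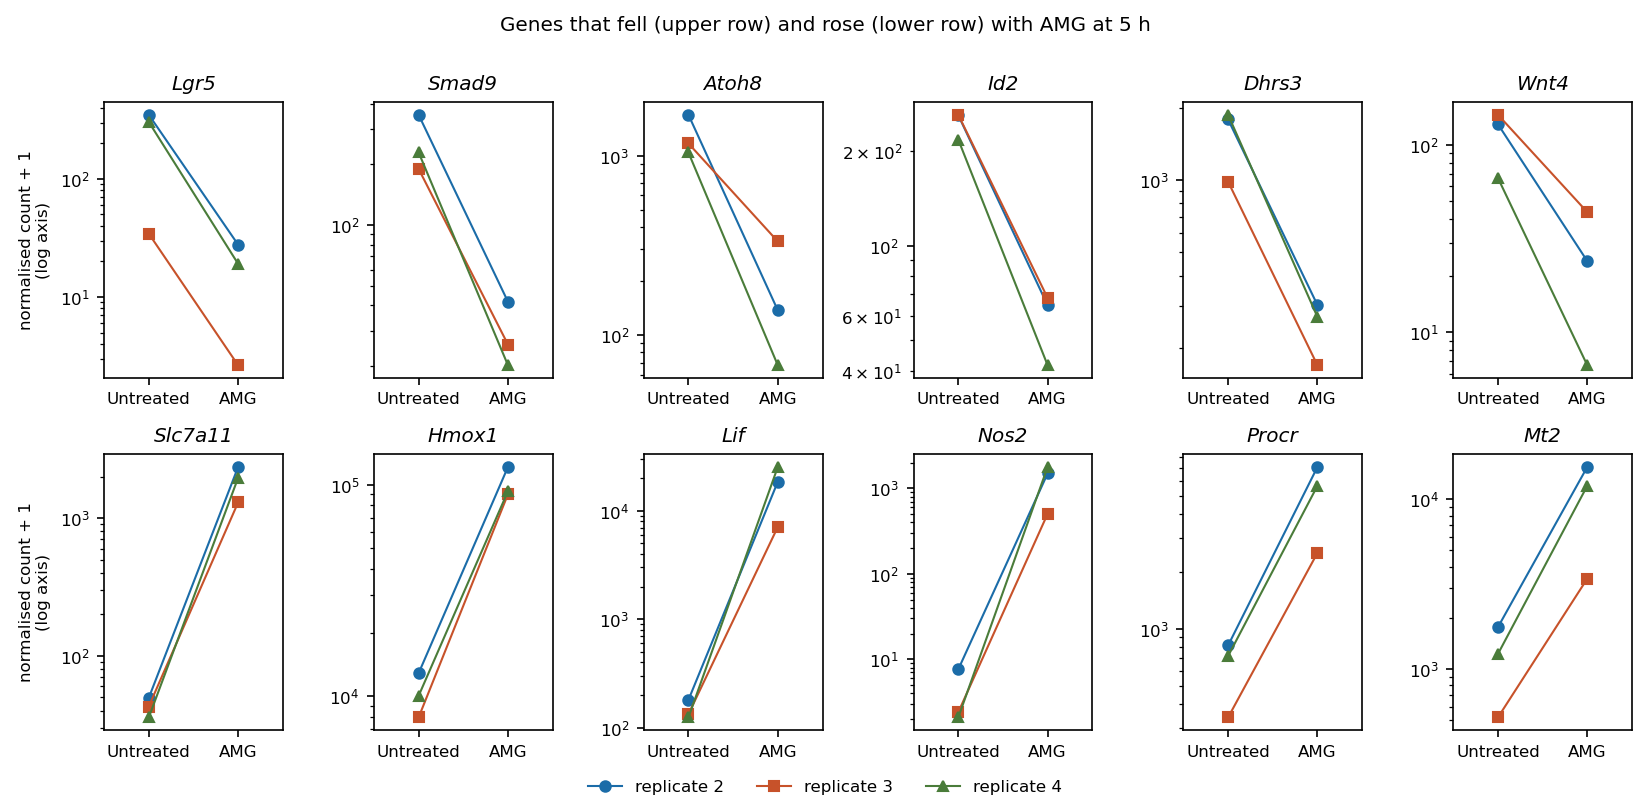
Normalised counts (plus 1, log axis) of 6 genes that fell (upper row) and 6 that rose (lower row); each line joins the untreated and treated library of one replicate number. The 3 lines of a panel run in the same direction in all 12 panels, and the treated and untreated values do not overlap in any of them. For genes among the 12 largest rises or falls, this lack of overlap was part of the rule that chose them.

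Among the rises was the antioxidant programme of the transcription factor NRF2. NRF2 is held down by Keap1 and, when electrophiles or oxidants act on Keap1, induces glutathione, thioredoxin and detoxification genes. Of 30 tested genes, 24 rose (80% against 17.9% of all genes) and 1, Ephx1, fell (-0.32 ± 0.09), with 12 called higher and a median of 0.84. Rises numbered 18 without replicate 2 and 7 with 4 pairs. The list medians of replicates 2, 3 and 4 were 0.90, 0.85 and 0.77. Slc7a11, which imports cystine for glutathione synthesis, went from 48.4, 41.8 and 34.6 normalised counts in untreated replicates 2, 3 and 4 to 2351, 1300.2 and 1962 in treated ones. All treated values of Slc7a11 lay far above the untreated ones, with the lowest in replicate 3. Lack of overlap was part of the rule that named the gene. The change of 5.43 ± 0.18 (SE) had an adjusted p of 2.14e-07 (limma). Srxn1, which repairs oxidised peroxiredoxins, went from 3094, 1838 and 2809 to 22626, 10447 and 13362 (2.54 ± 0.12), and both calls held without the block. Gclm, a subunit of the enzyme that starts glutathione synthesis, rose by 1.92 ± 0.14, the catalytic subunit Gclc by 0.76 ± 0.14, the thioredoxin reductase Txnrd1 by 2.29 ± 0.10, Prdx1 by 1.64 ± 0.13 and the quinone reductase Nqo1 by 1.79 ± 0.15. Gsta1 had 0 reads in the 3 untreated libraries and 64.9, 18.9 and 9.04 normalised counts in the treated ones. Nfe2l2, which encodes NRF2, rose by 0.96 ± 0.10, and Keap1 did not pass (0.12 ± 0.10, adjusted p = 0.373, limma).

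The antioxidant response element was searched as TGACNNNGC on both strands. It was found in 6 of 21 NRF2 list genes with a single RefSeq promoter (28.6%) and in 14.7% of all such tested genes. Among called genes it was found in 17.4% of the higher and 13.1% of the lower ones. The AP-1 element TGANTCA, which can share bases with it, was found in 5 of the 21 (23.8%) and in 4.67% of all. The stretches below hold the match in 2 called genes and show the shared bases in Prdx1, where the capitals read as the antioxidant element on the other strand and contain TGAGTCA, an AP-1 match.
Gclm, chr3:122245393-122245461 (plus strand): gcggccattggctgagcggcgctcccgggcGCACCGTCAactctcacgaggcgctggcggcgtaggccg
Prdx1, chr4:116685436-116685504 (plus strand): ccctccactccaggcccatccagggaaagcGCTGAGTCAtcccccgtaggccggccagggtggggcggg
The 2 matches began 134 and 133 bases before the start of genes that rose by 1.92 ± 0.14 and 1.64 ± 0.13 (SE).

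Haem and iron genes rose with them in part, 11 of 21 (52.4%) at an adjusted p under 0.05. The 4 falls (19%) were near the 19.3% of all tested genes. With 4 pairs the rises and falls were 4 and 0. Without replicate 2 there were 9 rises and 0 falls, and without replicate 4 9 and 1. Hmox1, which opens the haem ring and is a target of NRF2 and of haem itself, went from 12850.0, 7944 and 10045 to 121500.0, 90353 and 93339 normalised counts (3.32 ± 0.11, adjusted p = 1.99e-07, limma), also without the block. It lies at chr8:75093621-75100589 (plus strand) on GRCm38, and the treated and untreated libraries did not overlap. Blvrb, which reduces biliverdin, rose by 1.78 ± 0.14, the ferritin heavy chain Fth1 by 1.25 ± 0.13 and light chain Ftl1 by 0.44 ± 0.09. The iron exporter Slc40a1 went from 6.6, 2.78 and 4.33 to 57.3, 63.9 and 23.7, and the siderophore-binding Lcn2 from 109, 25.1 and 93.6 to 247, 256 and 326. Tfrc, the transferrin receptor that rises when iron is short, was at -0.15 ± 0.13 and did not pass (adjusted p = 0.4, limma). The metallothioneins Mt1 and Mt2, which bind zinc and other metals, were called higher. Mt2 went from 1759, 517 and 1222 to 15479, 3402 and 11992 and Mt1 from 1871, 723 and 1291 to 8499, 1939 and 5768, with both lowest in replicate 3. Their changes were 3.05 ± 0.12 and 1.92 ± 0.14 (SE). Of 11 zinc transporters and regulators tested beside them 2 rose and 2 fell, near the 17.9% and 19.3% of all tested genes. The list of metallothioneins and zinc genes together held 4 rises and 2 falls, 2 and 0 without replicate 2 and 1 and 0 with 4 pairs.

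NF-kB genes showed the largest list median, 1.38, with 15 of 26 called higher, 21 rising and 2 falling at an adjusted p under 0.05 (17 and 0 without replicate 2, 15 and 0 with 4 pairs). NF-kB is kept in the cytoplasm by IkB proteins and, once freed, induces its own inhibitors. Nfkbia, the main such inhibitor, went from 307, 315 and 322 to 5746, 2006 and 7229.8 normalised counts (3.79 ± 0.28, adjusted p = 3.17e-05, limma). Zc3h12a, an RNase that degrades cytokine transcripts, went from 174, 220.0 and 236 to 2341, 1896 and 3571. Untreated values of both lay in a narrow range, treated values lay far above, and both calls held without the block. Tnfaip3 rose by 2.89 ± 0.23, Nfkbiz by 3.03 ± 0.11, and the subunits Relb, Nfkb1, Nfkb2 and Rela by 2.09 ± 0.24, 1.82 ± 0.11, 1.50 ± 0.17 and 0.67 ± 0.11. Traf1 went from 11, 0 and 15.7 to 214, 18.9 and 553, with the smallest treated value in replicate 3. The deubiquitinase Cyld fell (-0.40 ± 0.10).

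Cytokines rose next to them. Of 31 interleukin, colony-stimulating factor and receptor genes, 17 rose and 4 fell, with 13 called higher and 1 lower. The rises numbered 11 and the falls 1 without replicate 2, and 12 and 1 with 4 pairs. Lif, an interleukin-6 family cytokine, went from 179, 132 and 123 to 18483, 7089.8 and 25307 normalised counts (6.69 ± 0.27, adjusted p = 8.38e-07, limma). Il6 went from 3.3, 25.1 and 0.541 to 388, 1188 and 438. Csf2, which had 0 reads in each untreated library, reached 244, 18.9 and 303. Treated replicate 3 was the lowest for Lif and Csf2 but the highest for Il6, and all 3 calls held without the block. The groups did not overlap, which the rule for the largest rises required of Lif and Il6. Il11 rose by 3.27 ± 0.15, Csf3 by 3.09 ± 0.29 and Il1rl1, the receptor of interleukin-33, by 1.55 ± 0.12. Of the receptor chains of the interleukin-6 family, Il6st (-0.74 ± 0.09) and Osmr (-0.43 ± 0.11) fell, while Lifr (-0.54 ± 0.24), Il6ra (-0.34 ± 0.55) and Il11ra1 (0.34 ± 0.12) did not pass. Il15 was called lower, from 38.5, 66.8 and 44.4 to 5.09, 29.5 and 12.4. Tslp, an epithelial-type cytokine, went from 164, 71 and 97.9 to 3617, 444 and 2433 and Cd40 from 9.9, 11.1 and 11.4 to 323, 98.4 and 248, the latter also without the block. Of 21 innate sensing and acute phase genes, 10 rose and 2 fell (6 and 0 without replicate 2, 4 and 0 with 4 pairs). The pentraxin Ptx3 rose from 2286, 1349 and 564 to 16519, 8896 and 8376 (3.15 ± 0.19), also without the block, the receptor Tlr2 rose by 1.63 ± 0.20 and Nod2 by 3.37 ± 0.27, and Tlr4 fell (-0.83 ± 0.22).

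Enzymes of lipid and gas mediators were among the largest rises. Nos2, the inducible nitric oxide synthase, held 6.6, 1.39 and 1.08 normalised counts in untreated replicates 2, 3 and 4 and 1496, 503 and 1782 in treated ones. The untreated values were at or near the floor of 3 reads and the treated ones far above it. The fitted change of 8.36 ± 0.39 (SE; adjusted p = 1.87e-06, limma) depends on the pseudocount for so low a base, and the call held without the block. The arginine importer Slc7a2 rose from 327, 69.6 and 202 to 3640.0, 929.7 and 3277 (3.73 ± 0.13), and Gch1, which makes the cofactor of nitric oxide synthases, by 2.82 ± 0.12. Prostaglandin synthesis rose at Ptgs2 (1.61 ± 0.10) and Ptges (2.75 ± 0.13), and the receptor genes Ptgir and Ptger4 rose by 3.15 ± 0.37 and 1.28 ± 0.23. Hpgd, which inactivates prostaglandins, was called lower, from 343, 23.7 and 24.3 to 35.6, 1.64 and 4.52, with untreated replicate 2 far above the other untreated libraries and overlapping groups. Of the 22 genes tested, 15 rose and 1 fell, and with 4 pairs 9 and 1. Ch25h, which makes an oxysterol, went from 8.8, 18.1 and 9.74 to 508, 108 and 706, also without the block, and the bradykinin receptor Bdkrb1 from 22, 5.57 and 35.7 to 746, 114 and 819.

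Growth factor ligands split into rises and falls of near equal number, 14 and 13 of 34. They numbered 12 and 8 without replicate 2 and 11 and 4 with 4 pairs. The EGF receptor ligands Areg, Btc, Epgn, Ereg and Hbegf were called higher, and Tgfa did not pass (0.44 ± 0.34, adjusted p = 0.335, limma). Ereg went from 3029, 1784 and 2886 to 27119, 13863 and 27823 normalised counts (3.13 ± 0.09, adjusted p = 1.83e-07, limma), Hbegf rose by 1.11 ± 0.10, and Areg went from 0, 4.18 and 2.16 to 73.8, 22.1 and 115. Among ligands known to act on vessels, Angptl4 rose from 877, 387 and 1109.9 to 7402, 3802 and 11899 (3.26 ± 0.10), Vegfa by 1.54 ± 0.14 and Vegfc by 1.50 ± 0.17, Angpt1 (-1.13 ± 0.20) and Figf (-0.53 ± 0.11) fell, and Vegfb (0.12 ± 0.20) and Pgf (0.47 ± 0.28) did not pass. The calls of Ereg and Angptl4 held without the block. Of the falls, Fgf10, which signals to epithelium, went from 428, 480.4 and 849 to 119.6, 245 and 157 (-1.74 ± 0.23), and Tgfb3 (-1.16 ± 0.09), Kitl (-1.15 ± 0.38) and Inhbb (-1.04 ± 0.18) were called lower, while Hgf (-0.83 ± 0.16) and Igf1 (-0.81 ± 0.09) fell by less than 1. Within the TGF-beta ligands, Tgfb1 rose by 1.05 ± 0.09 as Tgfb3 and Tgfb2 (-0.63 ± 0.12) fell.

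Feedback genes of ERK signalling rose in 15 of 25 and fell in 3, in 11 and 1 without replicate 2 and in 8 and 1 with 4 pairs. ERK induces phosphatases and adaptors that limit it. Errfi1, an inhibitor of the EGF receptor, went from 1239, 2032 and 1602 to 9618, 4790.2 and 14137 normalised counts (2.44 ± 0.29, adjusted p = 4.72e-04, limma). Dusp10, a phosphatase of JNK and p38, went from 184, 352 and 216 to 1119.6, 1340.4 and 1079.8, and Lrig1 from 559, 1103 and 994 to 3529, 2867 and 5816. All 3 separated the groups and held without the block. Dusp5, Spry4 and Dusp6 rose by 2.13 ± 0.23, 1.38 ± 0.15 and 0.76 ± 0.13, and Dusp1 (0.03 ± 0.11) and Etv4 (0.05 ± 0.13) did not pass. Spry1 (-1.04 ± 0.28) and Lrig3 (-1.42 ± 0.15) were called lower.

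Adhesion and coagulation genes rose in 11 of 18 (61.1%) and fell in 3 (16.7%), against 17.9% and 19.3% of all tested genes. With 4 pairs the rises and falls were 8 and 0. Procr, the endothelial protein C receptor, went from 815, 339.8 and 717 to 7119.7, 2510.3 and 5666 normalised counts (3.00 ± 0.09, adjusted p = 1.99e-07, limma), also without the block. Serpinb2, an inhibitor of plasminogen activators, went from 102, 824 and 45.4 to 2104, 7084 and 1884, with replicate 3 highest in both treatments. Icam1 and Vcam1, which bind leukocytes, rose by 2.96 ± 0.36 and 1.79 ± 0.28 and the urokinase gene Plau by 2.73 ± 0.25.

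Protein synthesis and turnover genes rose by small amounts, and their counts depended strongly on replicate 2. Of 36 cytosolic ribosomal protein genes, 31 rose and 0 fell, with a median of 0.45, and of 34 ribosome biogenesis genes 21 rose and 0 fell, with a median of 0.38. The ribosomal protein medians were 0.51, 0.20 and 0.65 in replicates 2, 3 and 4, and 3 genes rose without replicate 2, 11 without replicate 4 and 0 with 4 pairs, where the median was 0.07. Ribosome biogenesis genes had medians of 0.38, 0.44 and 0.36 in the 3 pairs and 0.44 with 4 pairs, with 10 rises without replicate 2 and 0 with 4 pairs. The only called gene among both was Rrs1, from 602, 671 and 565 to 1471, 966 and 1429.9 normalised counts (1.05 ± 0.16). The nucleolar proteins Fbl, Nop56 and Npm1 rose by 0.79 ± 0.13, 0.61 ± 0.09 and 0.50 ± 0.10. Of 35 proteasome genes, 25 rose and 2 fell, with Psma6 at 0.96 ± 0.13 and Psmd1 at -0.40 ± 0.13, and of 32 oxidative phosphorylation genes 16 rose and 0 fell. Without replicate 2 these rises were 5 and 2, without replicate 4 13 and 8, and with 4 pairs 0 and 0, with 4-pair medians of 0.11 and 0.01. With the length correction the medians were 0.26 for ribosomal proteins (17 rising), 0.41 for ribosome biogenesis (24 rising), 0.24 for the proteasome (19 rising) and 0.11 for oxidative phosphorylation (8 rising and 1 falling). The ubiquitin adaptor Sqstm1 (p62) rose from 7241, 5696 and 5952 to 26170.0, 13338 and 20631 (1.62 ± 0.13, adjusted p = 4.19e-05, limma), also without the block. Its list of 32 autophagy and lysosome genes held 7 rises (21.9%) and 5 falls (15.6%), near the 17.9% and 19.3% of all tested genes. These were 2 and 2 without replicate 2, 3 and 4 without replicate 4, and 1 and 0 with 4 pairs. Glycolysis and hypoxia genes rose in 12 of 29 and fell in 0, with 5 rises without replicate 2, 7 without replicate 4 and 4 with 4 pairs. Egln3, an oxygen-dependent hydroxylase, went from 144, 100.2 and 111 to 856, 324 and 862, also without the block, and the glucose transporter Slc2a1 from 3202, 2558 and 4145 to 7426, 4976 and 9788, while Ldha, Pgk1 and Hif1a were at 0.24 ± 0.10, 0.13 ± 0.09 and 0.26 ± 0.11 and did not pass.

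Antigen presentation and interferon genes rose with differences between the pairs. Of 16 class I presentation genes, 9 rose and 0 fell (1 rise with 4 pairs), with H2-K1 at 1.01 ± 0.15, Tapbp at 0.81 ± 0.14 and the immunoproteasome subunit Psmb8 from 27.5, 104 and 15.7 to 150.1, 182 and 115 normalised counts. Several H2 genes are near copies of each other and their reads can be shared. Among 23 interferon-stimulated genes, 8 rose and 2 fell (2 and 0 with 4 pairs), and the median was 0.07, 0.29 and 1.98 in replicates 2, 3 and 4. Without replicate 4 the list median was 0.25, against 0.77 with all 3 pairs, so the size of the median depended on replicate 4. The rises numbered 6 without replicate 4, 7 without replicate 2 and 11 without replicate 3. Gbp2 (1.93 ± 0.22) and Isg15 (1.67 ± 0.55) were called higher, and Irf1 (-0.58 ± 0.16) and Ifit2 (-0.68 ± 0.13) fell. Whether the macrophage transcripts of replicate 4 had a part in this was not tested.

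The remaining lists held at most 1 called gene each. Of 30 contractile, SRF and YAP target genes, 0 were called, and 9 fell (30%) and 3 rose (10%) at an adjusted p under 0.05. The falls and rises were 2 and 1 without replicate 2, 3 and 1 without replicate 4, and 0 and 0 with 4 pairs. Acta2 (-0.11 ± 0.13), Ctgf (0.11 ± 0.13) and Cyr61 (0.11 ± 0.12) did not pass, while Mylk (-0.92 ± 0.09) and Vcl (-0.76 ± 0.11) fell. Of 36 amino acid transport and tRNA charging genes, 9 rose and 1 fell, and Slc7a2 was the called one. These rises were 3 without replicate 2 or without replicate 4 and 1 with 4 pairs. The unfolded protein and integrated stress response list held 11 rises (45.8%) and 0 falls of 24 and a median of 0.36 (6 rises without replicate 2, 1 with 4 pairs), with Trib3 called (1.12 ± 0.19), Atf4 at 0.82 ± 0.11 and Hspa5 at 0.40 ± 0.10. The heat shock list held 8 rises and 1 fall of 22 and 0 called genes (3 rises without replicate 2, 0 with 4 pairs). Circadian clock genes rose in 4 and fell in 4 of 20 (20% each), near the 17.9% and 19.3% of all tested genes. The rises and falls were 1 and 0 without replicate 2, 4 and 1 without replicate 4, and 1 and 0 with 4 pairs. Dbp was called lower, from 141, 50.1 and 105 to 35.6, 39.4 and 39.5.

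Promoter composition of the called genes was described in the same windows. The AP-1 element was found in 40 of 287 called higher genes with a single promoter (13.9%), in 9 of 297 called lower genes (3.03%) and in 4.67% of all. TATAAA was found in 18.5% of the higher, 11.1% of the lower and 6.99% of all genes. CACGTG was found in 6.97%, 9.76% and 10.4%, and the FoxO element TGTTTAC in 4.18%, 3.37% and 2.43%. The median GC content was 58.7% in the higher, 62.7% in the lower and 61.3% in all promoters. The stretches below show AP-1 matches, in capitals, before the start of 2 genes that rose.
Lif, chr11:4257318-4257376 (plus strand): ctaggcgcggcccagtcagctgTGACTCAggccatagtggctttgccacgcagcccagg
Procr, chr2:155751033-155751099 (plus strand): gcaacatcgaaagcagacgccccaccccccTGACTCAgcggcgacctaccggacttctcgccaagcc
The matches began 228 and 154 bases before the start.

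The response moved with gene length. Called higher genes had a median exon length of 3290 bases, called lower genes 6015 and all tested genes with a known length 4454. Across 12480 genes, which are not independent replicates, the Spearman correlation between fold change and exon length was -0.35, and -0.32, -0.21 and -0.39 in pairs 2, 3 and 4. The shortest group of genes had a median log2 ratio of 0.42, 0.14 and 0.46 in the 3 pairs and the longest -0.33, -0.14 and -0.42. The correction for exon length removed, in each library, the trend with length of its deviations from the gene means. After it, 439 of 505 higher and 398 of 521 lower genes with a length were still called. All of these 505 and 521 genes kept their direction. RNA integrity was not measured in the files, and its part in the trend was not tested.

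**Figure D4:**
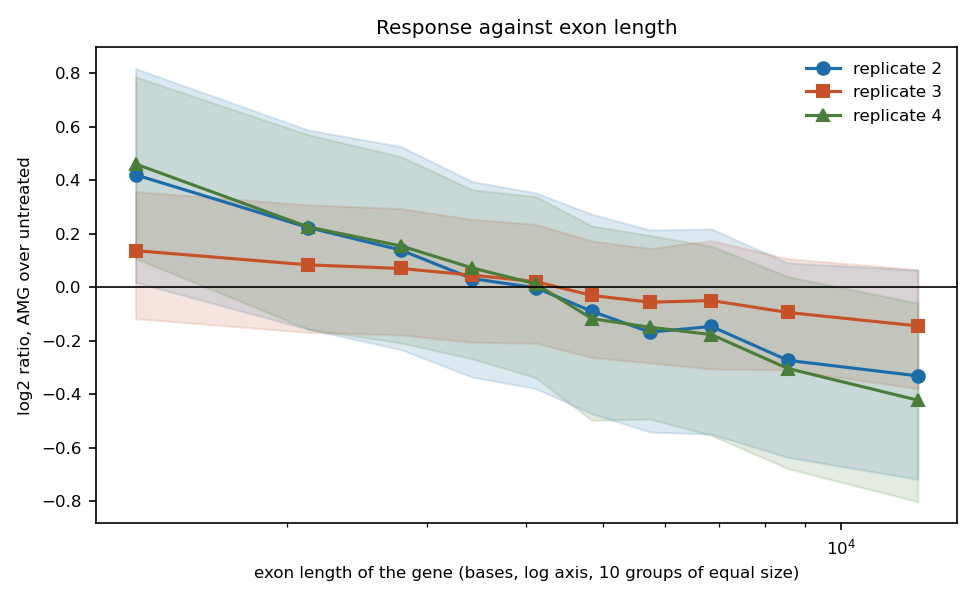
Median log2 ratio of AMG over untreated (lines) and quartiles (bands) in 10 groups of tested genes ordered by exon length, for each replicate pair. Medians fall from above 0 in the shortest to below 0 in the longest genes in all 3 pairs, least in replicate 3.

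The replicate 1 pair of the same time, which came from a table normalised separately and was not in the fit, gives each gene a further log2 ratio with no replicate. Of the 530 higher genes, 453 (85.5%) had a ratio above 0 there, and of the 560 lower genes 340 (60.7%) had a ratio below 0, against 50.2% and 49.7% of all tested genes. The medians were 1.47 and -0.34. Among the falls, Lgr5 (-3.86), Smad9 (-4.15), Atoh8 (-4.45), Dhrs3 (-3.42) and Id2 (-2.94) were also below 0 in replicate 1, and Tppp was at -0.19. Other falls were above 0, among them Gli2 (0.22), Hmmr (0.41), Arid5b (0.52), Eya4 (0.54), Setbp1 (0.56) and Bcor (0.58). So were Cdon (0.99), Pole (1.05), Notch3 (1.40) and Gatad2b (2.14). Among the rises, Slc7a11 (4.56), Lif (5.95), Nos2 (6.42) and Hmox1 (2.07) were above 0 as well, and Mt1 was at 0.00. Trib3 (-0.35), Lcn2 (-0.42), Gsta1 (-0.51) and Saa3 (-1.50) were among the rises below 0 there.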

How the data were processed

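RNA of scratched mouse tail fibroblasts was sequenced, 3 AMG-treated and 3 untreated libraries at 5 h (replicates 2 to 4, 3 pairs). The authors prepared stranded poly(A) libraries, aligned single-end reads to mm10 with TopHat and used HTSeq to count those of each gene. Which annotation release and strand setting the counting used is not given in the sources used here, and genes that overlap or run antisense to another are uncertain. The deposited signal is a normalised count, made by the authors by scaling each library with its size factor. Dividing by the smallest step gave whole reads for 100% of values (tolerance 0.1), with totals of 12545537 to 34696529, and 3 reads were taken as the floor. Reads carry no molecular identifiers.

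Here log2(normalised count + 1) of 13096 genes with a mean of at least 10 was fitted with limma 3.58.1 in R 4.3.3 (replicate number and treatment, eBayes with trend, Benjamini-Hochberg), after tests on simulated data. The fold change on this scale understates changes of low genes. Genes were called at an adjusted p under 0.05 and a log2 change beyond 1. Libraries were paired by the replicate number in their labels. Same-numbered libraries deviated from their group means together (r = 0.65, 0.76 and 0.70 across genes, and -0.59 to 0.12 between numbers). The 115 genes named by rule were the 12 largest rises and falls among called genes with a mean of at least 100 and non-overlapping groups, without Fos, Jun, Mmp and chemokine genes, and up to 3 called genes per list with 1 in the other direction; other members complete a pathway. Members and lists were chosen with earlier results of these data known. Some genes and 1 of the lists are not reported here. Lengths and coordinates came from GENCODE vM21 (12480 tested genes matched), promoters from RefSeq GRCm38.p6. Alternatives were no block, pseudocounts of 0.1 and 10, a filter at 0 or at a mean of 50, upper quartile rescaling, no trend, edgeR 4.0.16 and DESeq2 1.42.0 on recovered reads, a length correction, 4 pairs, and leaving out each replicate.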

Additional observations from a re-analysis of the deposited data

How the results depend on the processing

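Without the replicate block, 112 genes were called higher, 32 lower and 162 at any size. The differences between replicate numbers are part of the error in that fit. Of the 115 genes named by rule, 81 no longer passed. Adding the replicate 1 pair to the fit gave 296 higher, 138 lower and 515 of any size, and the cause was not tested. Leaving out each replicate gave 336 to 748 higher, 294 to 913 lower and 1419 to 6800 of any size, with the fewest genes without replicate 2 and the most without replicate 3, and 2674 of any size without replicate 4. Without replicate 2, 13 named genes no longer passed, among them Il15, Rnf43, Ror1, Gli2 and Hoxa13, and without replicate 4 there were 5. With the replicate 1 pair added 47 of the 115 no longer passed, and without the trend 17. Without the trend limma found 1895 genes of any size (445 higher, 403 lower). The other 8 alternatives gave 359 to 645 higher and 397 to 638 lower genes. No named gene changed direction under any alternative run; 15 were not tested at a mean of at least 50. Of the list medians, 4 changed sign: the circadian clock list (-0.18) was at 0.03 with the length correction and 0.003 at a mean of at least 50, the Notch list (-0.18) at 0.003 with 4 pairs, the autophagy list (0.03) at -0.02 with upper quartile rescaling and -0.004 with 4 pairs, and the cell cycle inhibitors (-0.06) at 0.07 without replicate 3. Genes near the floor of 3 reads, such as Gli2, Rnf43 and Nos2 in one group, have fold changes that depend on the pseudocount.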

Other observations

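Called genes outside the 39 lists also held hormone, receptor and retinoid genes, chosen here after their values were seen. The deiodinases, which set the local level of active thyroid hormone, moved in opposite directions. Dio2, which makes the active hormone, held 24.2, 73.8 and 20.0 normalised counts in untreated replicates 2, 3 and 4 and 106, 409 and 90.4 with AMG (2.22 ± 0.22 on the log2 scale, SE, n = 3 pairs; limma adjusted p = 1.82e-04). Dio3, which inactivates it and lies in the same imprinted region as Dio3os, held 6545, 5339.9 and 9457 and 1182, 1642 and 1508 (-2.27 ± 0.16; limma adjusted p = 2.36e-05). Both were called. Of the enzymes that handle retinaldehyde beside Dhrs3, Dhrs9 was called lower (-2.09 ± 0.27) and Aldh1a3, which makes retinoic acid, higher (2.23 ± 0.10).

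Receptors for small ligands were called in both directions. The estrogen-responsive receptor Gper1 held 2.2, 2.78 and 30.3 normalised counts in untreated replicates and 135, 41 and 299 with AMG (4.05 ± 0.44; limma adjusted p = 2.87e-04), and the adenosine receptor Adora2b (1.80 ± 0.28) was called higher. The vasopressin receptor Avpr1a (-2.24 ± 0.33), the angiotensin receptor Agtr1a (-1.41 ± 0.28) and the parathyroid hormone receptor Pth1r (-1.47 ± 0.21) were called lower. The receptor Fgfr2, which binds Fgf10 in one of its forms, went from 994, 480.4 and 1045 to 186, 127 and 195 (-2.25 ± 0.14; limma adjusted p = 1.37e-05), and Rspo2, a ligand of Lgr5, from 83.6, 187 and 70.3 to 24.2, 48.4 and 12.4 (-2.03 ± 0.26; limma adjusted p = 7.55e-04).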
